A study of Mus musculus with 36 samples.

Results

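The nuclear-encoded subunits of the mitochondrial respiratory chain and of ATP synthase were followed in mouse macrophages and glioma cells that were given myelin debris. The rule for the set uses only gene name and level, but the set was chosen with earlier results of these data known. Protein-coding genes outside the mitochondrial genome qualified when their symbol began with Nduf, Uqcr, Atp5, Cox4, Cox5, Cox6, Cox7 or Cox8, or was Sdha, Sdhb, Sdhc or Sdhd. Of 92 such genes, 83 had a mean of at least 5 CPM (counts scaled to a library size shared by all libraries) over the 36 libraries and were kept, out of 17197 protein-coding genes and 29883 genes in the table. The 83 comprise 36 subunits of complex I, 6 assembly factors of complex I, the 4 subunits of complex II, 8 genes of complex III, 11 of complex IV, the supercomplex factor Cox7a2l and 17 of ATP synthase. The lowest genes inside the limit were the complex I assembly factors Ndufaf3 at 7.87 CPM, Ndufaf5 at 7.99 CPM and Ndufaf2 at 8.93 CPM. The 9 genes left out ran from Cox5b-ps at 0.0236 CPM to Ndufb2 at 4.18 CPM. Among them were the isoforms Cox4i2 at 0.0251 CPM, Ndufa4l2 at 0.0434 CPM, Cox6b2 at 0.157 CPM, Cox7a1 at 0.728 CPM and Cox6a2 at 0.831 CPM. All 83 members passed the filter on low counts in every fit.

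The series measured RNA of 2 cell types in 12 groups of 3 libraries. Macrophages had been grown from bone marrow, and the tumour cells were the line PDG-Ink4a Recurrent, from a mouse glioma model driven by PDGFB on an Ink4a/Arf knockout background. Each cell type was kept alone (mono-culture) or with the other (co-culture) and was sampled without myelin debris, here 0 h and labelled as the control, or 6 h or 24 h after myelin debris. The labels name no other treatment and give no genotype for these macrophages, all 6 tumour groups carry the same model alleles, and 1 tumour line was used. Nor do they tell how long the untreated cultures had been grown when sampled, which means that a myelin effect and an effect of culture age cannot be told apart. It is also not stated whether the 3 libraries of a group, numbered 001 to 003, came from separate cultures or animals, so p-values measure the spread between these libraries, which may be technical.

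In the respiratory chain, complex I takes electrons from NADH and complex II takes them from succinate. Both pass them through ubiquinone to complex III, and cytochrome c carries them on to complex IV, which reduces oxygen, while ATP synthase uses the proton gradient that complexes I, III and IV build. Complex II is also an enzyme of the tricarboxylic acid cycle and is the only respiratory complex with no subunit encoded in mitochondrial DNA. In macrophages the balance between respiration and glycolysis is known to shift with activation, and lipid uptake feeds fatty acid oxidation, whose electrons enter the same chain.

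Promoter sequences are shown for 4 members whose levels are followed below. Uqcrh and Cox7a2l had the highest changes in macrophages alone at 24 h, where Ndufaf4 was the member called as lower. The 24 h mono-culture change of Ndufb8 was called as different between the 2 cell types. That call was kept in only 1 of 12 fits that left out 1 library. The sequences are from RefSeq, build GRCm38.p6, and run 5′ to 3′ on the gene's own strand up to the base before the RefSeq start site. Capitals mark matches, on either strand, to 1 of 4 words: GCATGCGC, the core of sites for nuclear respiratory factor 1 (NRF1), CCGGAAG, the core of sites for ETS factors such as GABP, AAGATGGCG, the core of sites for YY1, and GGGCGG, the GC box of Sp1. Only 150 bases are given for Uqcrh, because its promoter runs into the first exon of the opposite-strand gene Lrrc41. The RefSeq start of Cox7a2l used here lies inside the gene as annotated in the GENCODE set.
Uqcrh, chr4:116075071-116075220, minus strand: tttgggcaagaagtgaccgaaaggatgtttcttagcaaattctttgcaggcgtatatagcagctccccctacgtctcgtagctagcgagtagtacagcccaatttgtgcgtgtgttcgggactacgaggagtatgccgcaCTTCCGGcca
Cox7a2l, chr17:83514334-83514583, minus strand: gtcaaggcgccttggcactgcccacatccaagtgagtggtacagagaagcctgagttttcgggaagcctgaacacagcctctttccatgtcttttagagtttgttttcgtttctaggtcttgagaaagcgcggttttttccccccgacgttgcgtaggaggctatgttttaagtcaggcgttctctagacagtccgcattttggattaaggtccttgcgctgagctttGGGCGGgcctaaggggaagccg
Ndufaf4, chr4:24897833-24898082, plus strand: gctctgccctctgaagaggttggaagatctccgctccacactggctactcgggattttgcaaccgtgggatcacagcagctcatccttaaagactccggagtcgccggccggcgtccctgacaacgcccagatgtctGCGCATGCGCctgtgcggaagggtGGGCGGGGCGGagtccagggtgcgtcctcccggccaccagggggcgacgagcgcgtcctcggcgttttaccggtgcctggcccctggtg
Ndufb8, chr19:44555443-44555692, minus strand: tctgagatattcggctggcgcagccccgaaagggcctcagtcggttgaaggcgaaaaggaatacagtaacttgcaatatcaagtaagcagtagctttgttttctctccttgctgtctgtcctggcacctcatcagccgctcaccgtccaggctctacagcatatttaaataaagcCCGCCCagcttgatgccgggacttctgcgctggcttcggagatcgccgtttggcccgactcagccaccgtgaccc
Uqcrh holds 1 ETS word next to its start site. Ndufaf4 holds the NRF1 word on both strands, overlapping, and 2 overlapping GC boxes, whereas Cox7a2l and Ndufb8 hold 1 GC box each.

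RefSeq promoters were matched for 71 of the 83 members, and 12 were not matched. In the 250 bases before the start site, the NRF1 word stood in 9 of 71 members (12.7%) against 3.32% of all 17492 protein-coding genes, and the ETS word in 13 (18.3%) against 10.2%. The YY1 word stood in 1 member (1.41%) against 0.84% and the GC box in 28 (39.4%) against 45.8%. When the 50 bases after the start site were added, the YY1 word stood in 7 members (9.86%) against 2.14% of all genes, and the NRF1 word in 12 (16.9%) against 3.94%. These are word matches and not measured binding sites.

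Library totals ran from 7911378 to 15319104 counts with a median of 12262573. Levels below are CPM after TMM normalisation, which scales the libraries of all 36 together, whereas changes within a cell type come from fits whose TMM factors use its 18 libraries only. Between the macrophage cultures these scalings differ: with factors over all 36 libraries, called the shared scaling below and tried after seeing the data, the median of all genes lay higher in co-culture by 0.1 at 0 h, 0.11 at 6 h and 0.12 at 24 h (log2) than in the fits. Differences between macrophage cultures below are therefore about that much lower than the printed CPM would give. Of all genes called between them, 74.1%, 78.5% and 70.8% were higher in co-culture at the 3 times in the shared scaling, against 56.1%, 58.5% and 51.0%. In the changes with time within a culture the shift was at most 0.05, with 63.3% of the 24 h calls higher against 49.8% in mono-culture and 67.0% against 47.3% in co-culture, and among the tumour groups at most 0.01. Macrophage libraries numbered 001 stood apart. The transcript CT010467.1 took 17.4%, 15.1% and 10.1% of their counts in mono-culture at 0 h, 6 h and 24 h, and 12.8%, 4.08% and 10.1% in co-culture. In tumour libraries 001 it took 13.4%, 6.69% and 2.99% in mono-culture at these times, and 3.23%, 0.267% and 2.13% in co-culture. In macrophage libraries 002 and 003 it took at most 1.22%, and in those of the tumour cells at most 2.2%. The macrophage marker list (12 of 12 genes in the table) summed to between 12500 and 20400 CPM in macrophage libraries and to between 18.6 and 1640 CPM in tumour libraries. The tumour cells had Pdgfra at 108 to 186 CPM and Cspg4 at 374 to 939 CPM, but of the glioma markers Sox10, Gfap, Bcan and Ptprz1 were at or near 0, and the fibroblast list (4 of 4 genes) summed to between 7550 and 13100 CPM. Most of that sum was Col1a1 (6960 to 12500 CPM). Pdgfrb was at 417 to 698 CPM, Dcn at 10.7 to 85.2 CPM and Lum at 0.0 to 5.29 CPM. In macrophages the fibroblast list summed to between 0.288 and 10.6 CPM in mono-culture and between 95.9 and 453 CPM in co-culture. Tumour libraries 001 held 18.6 to 26.7 CPM of the macrophage list and tumour libraries 002 and 003 held 251 to 1640 CPM. In mono-culture, tumour libraries 002 and 003 held 251 and 330 CPM at 0 h and 1290 and 1640 CPM at 24 h. Their co-culture counterparts held 1470 and 976 CPM at 0 h and 1190 and 1240 CPM at 24 h. In bulk RNA, fewer cells of a type and less RNA per cell cannot be told apart.

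Summed over the 83 members, the chain was more abundant in macrophages (5572 to 7524 CPM, median 6719 CPM, 18 libraries) than in tumour cells (5399 to 6221 CPM, median 5826 CPM, 18 libraries), with overlapping ranges. Macrophages in mono-culture held 6004 ± 398 CPM without myelin, 6758 ± 779 CPM after 6 h and 6700 ± 289 CPM after 24 h (mean ± SD, n = 3). In co-culture they held 6700 ± 477, 7021 ± 331 and 6805 ± 214 CPM at these times. The 0 h mono-culture libraries, at 5572, 6354 and 6087 CPM, were below all 3 co-culture 24 h libraries (6571, 6992 and 6851 CPM). Tumour cells held between 5694 ± 258 CPM (mono-culture, 6 h) and 6072 ± 172 CPM (co-culture, 24 h). Library 001 had the lowest sum of its group in all 6 macrophage groups. The mono-culture 6 h library 003 had the highest sum of all (7524 CPM), with 81 of 83 members above their own mean over the macrophage libraries.

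**Figure D1:**
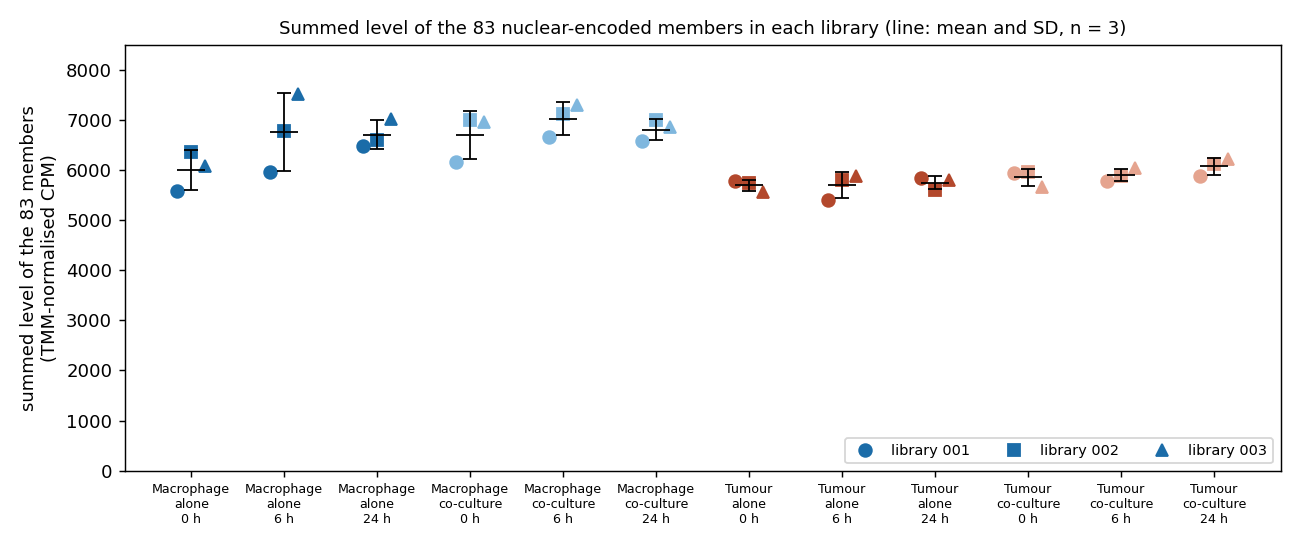
Summed level of the 83 members in each library, in TMM-normalised CPM, sorted by cell type, by culture and by time after myelin. Each point is 1 library, shaped by its number, and the line with whiskers is the mean ± SD of 3; macrophage libraries spread from 5572 to 7524 CPM and tumour libraries from 5399 to 6221 CPM.

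Levels between members are comparable only per length, and are given here as CPM per kilobase of exon in mono-culture at 0 h (mean ± SD, n = 3). The length used is that of all annotated exons of a gene joined, 708 bases for Cox6b1, 3135 for Atp5a1 and 4237 for Atp5b. Transcripts in these cells may be shorter, and the order of members and of complexes rests on that length. In macrophages the complex IV subunit Cox6b1 led with 174 ± 9.39, followed by the catalytic-head subunits of ATP synthase, Atp5a1 with 171 ± 15.6 and Atp5b with 162 ± 21.8, and by the complex IV subunit Cox4i1 with 136 ± 2.52. The first 3 lay within each other's spread. In tumour cells Atp5b led with 196 ± 4.38, and Cox6b1 stood at 109. By complex, the median per kilobase in macrophages was 64.5 for complex IV, 53.7 for complex II, 49.0 for complex III, 33.5 for ATP synthase, 23.3 for complex I and 4.86 for the complex I assembly factors. Tumour cells showed 59.2, 40.5, 41.0, 29.3, 22.2 and 4.78 for the same complexes. By this measure assembly factors were the scarcest class in both cell types. Across the 18 macrophage libraries, a member's correlation with the median of the other members had a median of 0.7, with 64 of 83 members over 0.5. Across the 18 tumour libraries that median was 0.34, with 24 over 0.5. These correlations describe libraries that share group, depth and scaling.

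In macrophages alone, 6 h of myelin came with small shifts in nearly the whole set. The change was above 0 in 78 of 83 members (94.0%, against 53.5% of all tested genes), with a median log2 change of 0.19 against 0.02 over all genes. Of the members 3 rose and none fell (edgeR quasi-likelihood test, Benjamini-Hochberg adjusted p under 0.05 over all tested genes, the rule used throughout), while 2.15% of all 13165 tested genes were called. They were Uqcrh, the hinge protein of complex III, Cox8a, a small subunit of complex IV, and Ndufs8, an iron-sulphur subunit of complex I. All 17 ATP synthase members, all 11 complex IV members and all 8 complex III members were above 0. By contrast, only 2 of the 6 complex I assembly factors were above 0, with a median of -0.03.

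Uqcrh read 72.4, 64.6 and 73.2 CPM at 0 h (libraries 001 to 003) and 83.6, 87.0 and 107 CPM at 6 h, a log2 change of 0.41 ± 0.10 (SE, adjusted p = 0.0376, edgeR). Every 6 h library exceeded every 0 h library. Ndufs8 read 31.5, 34.5 and 31.0 CPM at 0 h and 37.5, 37.7 and 46.4 CPM at 6 h, a log2 change of 0.33 ± 0.08 (adjusted p = 0.0461, edgeR). Its groups did not overlap either, and library 003 stood out at 6 h. Cox8a read 57.6, 71.1 and 66.3 CPM at 0 h and 71.8, 77.4 and 97.0 CPM at 6 h, a log2 change of 0.34 ± 0.09 (adjusted p = 0.0498, edgeR). Its lowest 6 h library was above its highest 0 h library by less than 1 CPM.

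The 6 h calls were often lost when 1 library was left out. Uqcrh was called in 3 of 6 such fits, with log2 changes from 0.31 to 0.46. Cox8a (0.23 to 0.4) was called in 2 of 6 and Ndufs8 (0.24 to 0.4) in 1 of 6. At an unadjusted p under 0.05, 39 members were higher and 0 lower, while 16.3% of all genes passed. In the shared scaling no member was called, against 1.61% of all genes, and Uqcrh had 0.40 (adjusted p = 0.0541, edgeR). The count of calls was 0 without the 0 h library 002 or 003 or without the 6 h library 003, and 6 without the 6 h library 001 or 002. The members' median log2 change was 0.11 without the 6 h library 003. With the library number as a block, 10 members were called, against 5.07% of all genes. DESeq2 called 9 members, against 4.57% of all genes. In libraries 002 and 003 only, 6 members were called, against 5.91% of all genes.

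By 24 h of myelin in mono-culture, 13 members rose and 1 fell, or 16.9% of the set against 15.2% of all genes, so the share called was near the background. The direction was uneven: 61 of 83 members (73.5%) were above 0, against 49.0% of all genes, with medians of 0.1 and -0.0. At an unadjusted p under 0.05, 27 members were higher and 3 lower, while 29.2% of all genes passed. The members that rose included 4 of 11 in complex IV (Cox4i1, Cox6c, Cox8a and Cox6b1) and 4 of 19 in the membrane arm of complex I (Ndufa1, Ndufb11, Ndufc1 and Ndufb5). The others were Uqcrh of complex III, the supercomplex factor Cox7a2l, Sdhd, a membrane anchor of complex II, and Atp5mpl and Atp5e of ATP synthase. None of the 8 members of the NADH-oxidising arm and none of the 9 of the ubiquinone-reducing arm was called, with medians of 0.01 and -0.0.

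**Figure D2:**
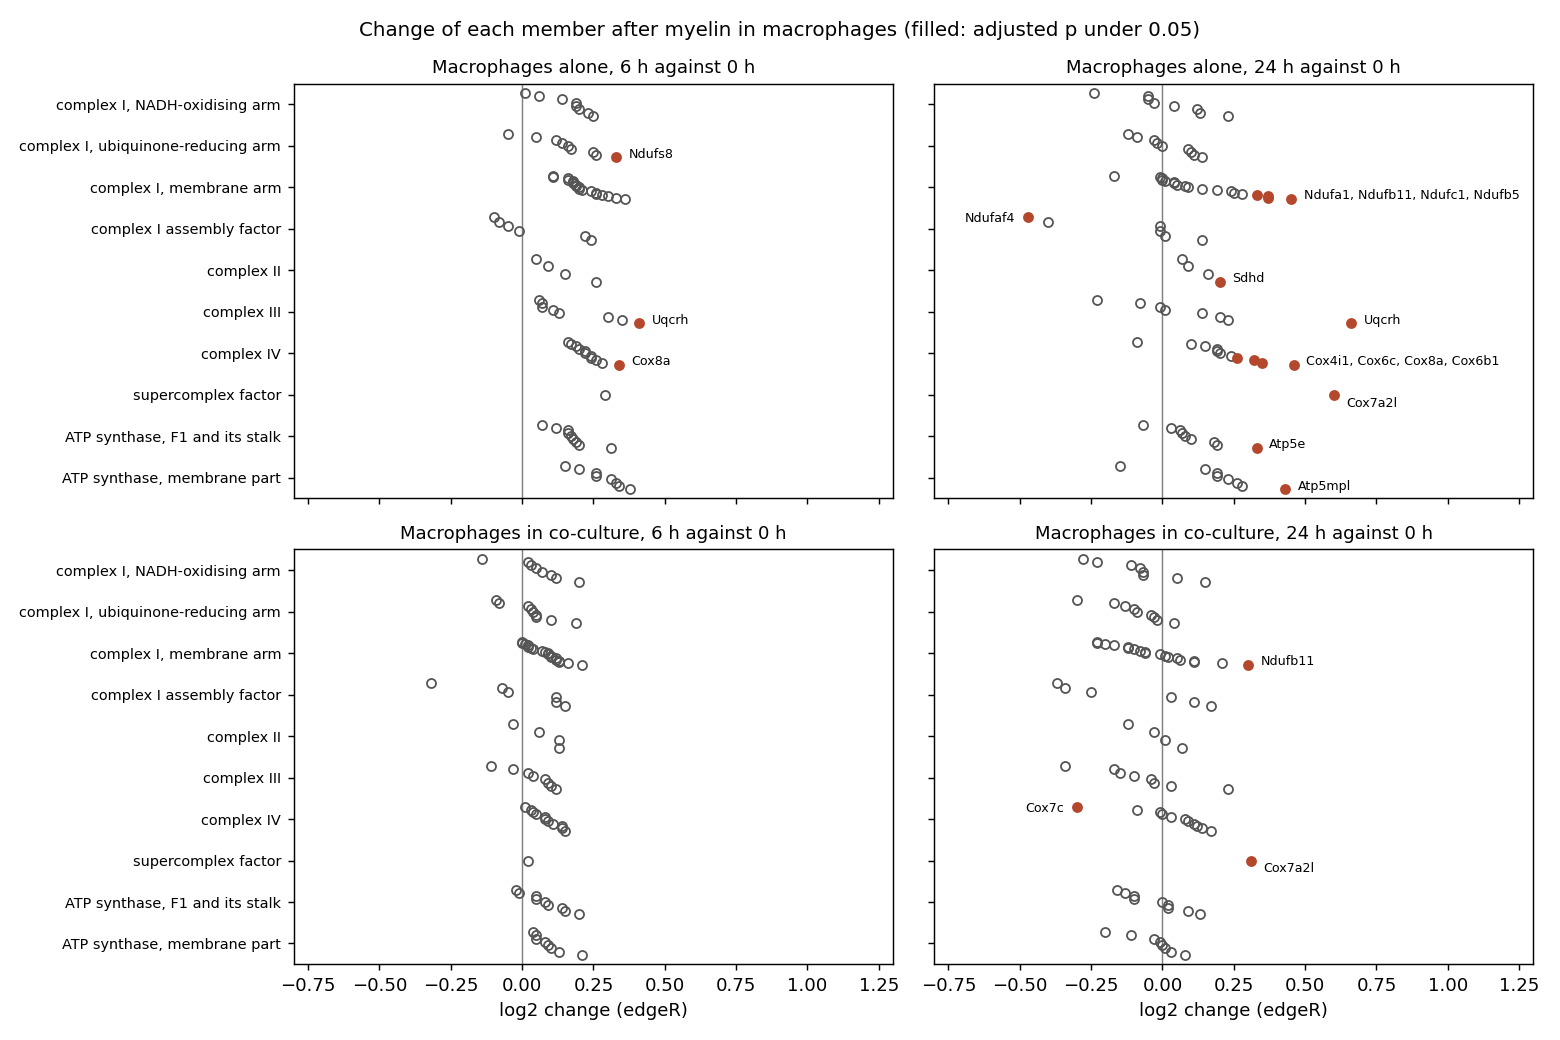
Log2 change of each member in macrophages, 6 h and 24 h after myelin against 0 h, alone and in co-culture, with the members in rows by role. Filled points passed the test (edgeR, adjusted p under 0.05) and carry their names; alone at 24 h, Uqcrh (0.66) and Cox7a2l (0.60) lay above the rest and Ndufaf4 (-0.47) below.

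Uqcrh, at mm10 chr4:116066965-116075071, had the highest change. It read 115, 105 and 121 CPM at 24 h against 72.4, 64.6 and 73.2 CPM at 0 h, a log2 change of 0.66 ± 0.09 (adjusted p = 0.000405, edgeR). Its 6 h libraries, from 83.6 to 107 CPM, lay mostly between the 0 h and 24 h libraries, with the highest 6 h library just above the lowest at 24 h. Cox7a2l, at chr17:83501918-83517330, helps to join complexes III and IV into supercomplexes. Its libraries read 92.1, 99.0 and 98.4 CPM without myelin, 108, 108 and 138 CPM after 6 h and 133, 139 and 177 CPM after 24 h. The 24 h change was 0.60 ± 0.09 (log2, adjusted p = 0.000938, edgeR), and no 24 h library fell among those of 0 h. Of the 50-base words of its exons, 13.8% also occur in the pseudogene Gm6969, so some of its reads could belong there.

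Cox4i1, the ubiquitous isoform of complex IV subunit 4, lies at chr8:120668222-120674207. It read 211, 215 and 207 CPM without myelin, 236, 226 and 292 CPM after 6 h and 291, 282 and 320 CPM after 24 h, a 24 h change of 0.46 ± 0.09 (log2, adjusted p = 0.00274, edgeR). The 0 h libraries were within 8 CPM of each other and every later library was above them. Its exons overlap those of Emc8 on the opposite strand, and the use of strand in the counting is not stated by any source at hand. Cox6c, another complex IV subunit, read 64.1, 70.8 and 73.6 CPM at 0 h and 84.7, 90.3 and 97.4 CPM at 24 h, a change of 0.35 (adjusted p = 0.0104, edgeR). Groups did not overlap. In contrast Cox5a, which sits on the matrix side of complex IV, had a change of 0.15 ± 0.10 and was not called.

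In complex I the called subunits all sit in or on the membrane arm. Ndufa1 read 21.5, 25.7 and 28.2 CPM at 0 h and 32.9, 32.4 and 40.5 CPM at 24 h, a change of 0.45 ± 0.11 (log2, adjusted p = 0.0149, edgeR). Ndufb11 read 36.4, 35.1 and 33.0 CPM at 0 h and 44.8, 43.3 and 49.7 CPM at 24 h, a change of 0.37 ± 0.08 (adjusted p = 0.00775, edgeR). In both, every 24 h library was above every 0 h library. Ndufc1 rose by 0.37 (adjusted p = 0.0252, edgeR) and Ndufb5 by 0.33 (adjusted p = 0.0177, edgeR). Ndufv1, the flavin-binding subunit that oxidises NADH, had a change of 0.13 ± 0.08 and was not called, and Ndufb8, a membrane-arm subunit, 0.25 ± 0.10 (adjusted p = 0.114, or 0.0322 when blocked by library number, edgeR).

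The head subunits of ATP synthase and the flavoprotein of complex II were not called. Atp5b, the catalytic beta subunit, read 589, 772 and 704 CPM at 0 h and 650, 687 and 668 CPM at 24 h, a log2 change of -0.07 ± 0.09 (adjusted p = 0.679, edgeR), and all 24 h libraries lay inside the 0 h range. Atp5a1, the alpha subunit, had a change of 0.08 ± 0.08 and Sdha, the flavoprotein of complex II, 0.07 ± 0.08, and neither was called. Atp5mpl, a small proteolipid of the membrane part, read 32.6, 38.2 and 31.0 CPM at 0 h and 43.4, 47.6 and 49.5 CPM at 24 h, a change of 0.43 ± 0.10 (adjusted p = 0.00784, edgeR), without overlap. Atp5e rose by 0.33 (adjusted p = 0.0413, edgeR) and Sdhd by 0.20 (adjusted p = 0.0447, edgeR). Uqcrfs1, the Rieske iron-sulphur subunit of complex III, had a change of 0.23 ± 0.08 (adjusted p = 0.0738, and 0.0456 with the block, edgeR).

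Ndufaf4, an assembly factor of complex I at chr4:24898083-24905001, was the member that fell. It read 17.2, 18.1 and 17.9 CPM without myelin, 17.2, 22.9 and 22.0 CPM after 6 h and 11.9, 12.9 and 14.5 CPM after 24 h, a 24 h change of -0.47 ± 0.13 (log2, adjusted p = 0.022, edgeR). The 24 h libraries were below all others of mono-culture. The call was lost in 4 of 6 fits that left out 1 library, namely without the 0 h library 002 or 003 or the 24 h library 001 or 002, with changes from -0.54 to -0.45. Uqcrh, Cox7a2l, Cox4i1, Cox6c and Ndufb11 were called in all 6 such fits. The count of members called was 7 without the 0 h library 002 or the 24 h library 001, 8 without the 0 h or the 24 h library 003, and 9 in libraries 002 and 003 only, against 17.4% of all genes. DESeq2 called 21 members, against 18.4% of all genes, and edgeR with the library number as a block called 21, against 22.2%. The shared scaling called 12, all higher, against 13.0% of all genes. It added Atp5k and lost Ndufaf4 at -0.44 (adjusted p = 0.0643), Cox6b1 at 0.30 (adjusted p = 0.0702) and Sdhd at 0.24 (adjusted p = 0.078, edgeR).

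In co-cultured macrophages fewer members were called after myelin. At 6 h no member was called in edgeR or in DESeq2, with 2 members higher and 1 lower at an unadjusted p under 0.05 (12.0% of all genes) and a median log2 change of 0.08, while 0.213% of all genes were called. At 24 h 2 members rose and 1 fell (3.61% of the set against 11.4% of all genes), with 34 of 83 above 0 and a median of -0.03. In the shared scaling the balance turned, with 46 above 0 and a median of 0.03, beside 0.04 over all genes. Ndufb11 read 40.2, 42.9 and 40.4 CPM at 0 h and 53.5, 53.6 and 50.3 CPM at 24 h, a change of 0.30 ± 0.08 (adjusted p = 0.0254, edgeR). Cox7a2l read 106, 112 and 108 CPM at 0 h and 144, 139 and 135 CPM at 24 h, a change of 0.31 ± 0.09 (adjusted p = 0.0465, edgeR). Cox7c, a small complex IV subunit, read 54.8, 53.5 and 52.7 CPM at 0 h and 45.7, 42.6 and 47.9 CPM at 24 h, a change of -0.30 ± 0.08 (adjusted p = 0.0276, edgeR). The groups of these 3 members did not overlap. Cox7c shares 22.1% of its 50-base words with other genes.

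Those calls were lost in most fits that left out 1 library, while the changes kept their sign and stayed near the values above. Cox7a2l was called in 0 of 6 such fits, with log2 changes from 0.27 to 0.33. Ndufb11 (0.27 to 0.33) and Cox7c (-0.33 to -0.24) were called in 2 of 6 each. No member was called without the 0 h library 002 or 003 or the 24 h library 002. The shared scaling called only Ndufb11 and Cox7a2l, against 9.1% of all genes, while Cox7c had -0.24 (adjusted p = 0.123, edgeR). With the library number as a block, 6 members were called, against 19.7% of all genes. That added Uqcrh with 0.23 (adjusted p = 0.0491), Ndufs4, an accessory subunit of the NADH-oxidising arm, with -0.28 (adjusted p = 0.0451), and Ndufaf4 with -0.37 (adjusted p = 0.0151) in the edgeR fit with the block. Ndufaf4 read 15.6, 22.6 and 22.8 CPM at 0 h and 14.3, 17.2 and 17.3 CPM at 24 h in co-culture, so that library 001 was the lowest at both times. The mono-culture and co-culture 24 h calls have Cox7a2l and Ndufb11 in common, or 14.3% of the 14 mono-culture calls and 66.7% of the 3 in co-culture.

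Whether the 24 h change itself differed between the cultures was tested as an interaction. No member passed in edgeR or DESeq2, and 0.0152% of all genes were called. At an unadjusted p under 0.05, 14 members had a lower and 0 a higher change in co-culture (7.45% of all genes passed), or 5 and 0 in the shared scaling. The median difference was -0.16, and 15 of 83 members were above 0. The lowest was Uqcrh at -0.43, and the lowest adjusted p of any member was 0.414. The mono-culture 0 h libraries were below the co-culture 0 h libraries in Uqcrh (at most 73.2 against at least 78.4 CPM) and in Cox4i1 (at most 215 against at least 234 CPM).

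Between macrophage cultures, 1 subunit of complex II was called at all 3 times in the fits on macrophages only. Sdhc, at chr1:171127165-171150603, is 1 of the pair of membrane anchors that hold the haem of complex II. It was lower in co-cultured than in lone macrophages at all 3 times, and at 0 h and 6 h it was the only member called, against 13.7% and 9.94% of all genes. At 0 h it read 93.3, 107 and 114 CPM in co-culture and 117, 127 and 122 CPM in mono-culture, a log2 difference of -0.32 ± 0.07 (adjusted p = 0.00518, edgeR). At 6 h it read 111, 108 and 109 CPM against 116, 130 and 143 CPM, a difference of -0.35 ± 0.07 (adjusted p = 0.00308, edgeR). At 24 h it read 109, 119 and 114 CPM against 136, 138 and 145 CPM, a difference of -0.41 ± 0.07 (adjusted p = 0.00037, edgeR). The groups did not overlap at any time, and the call held in all 6 fits that left out 1 library at each time. At 0 h and 6 h it was lost under another scaling. In the shared scaling, which the printed CPM use, the Sdhc difference was -0.22 ± 0.09 at 0 h, -0.24 ± 0.09 at 6 h and -0.29 ± 0.09 at 24 h, and only that at 24 h was called (adjusted p = 0.121, 0.102 and 0.0202, edgeR). The median of all genes stood at 0.08, 0.08 and 0.09 in those fits and at -0.02, -0.03 and -0.03 in the fits above. At 0 h that scaling called Uqcr10 of complex III, higher in co-culture, and at 6 h no member, against 12.1% and 9.72% of all genes.

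The iron-sulphur subunit Sdhb was not called at any of these times. Its co-culture minus mono-culture difference was -0.02 at 0 h (adjusted p = 0.929), -0.15 at 6 h (adjusted p = 0.299) and -0.22 at 24 h (adjusted p = 0.0581, edgeR). Sdhb read 93.8, 106 and 107 CPM in co-culture and 92.7, 99.0 and 98.4 CPM in mono-culture at 0 h, with overlap, which in the shared scaling is a difference of 0.08 (adjusted p = 0.675, edgeR), of the other sign. It read 101, 101 and 91.0 CPM against 104, 102 and 109 CPM at 24 h. The sum of the fibroblast list, which is high in the tumour cells mostly through Col1a1, moved with the culture: 95.9 to 453 CPM in co-cultured and 0.288 to 10.6 CPM in lone macrophages, against 7550 to 13100 CPM in tumour cells. The macrophage list was 17100 to 20400 CPM in co-culture and 12500 to 15500 CPM in mono-culture. Sdhc itself averaged between 82.6 and 91.9 CPM in the tumour groups. The part of tumour RNA in the Sdhc difference was not tested.

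**Figure D3:**
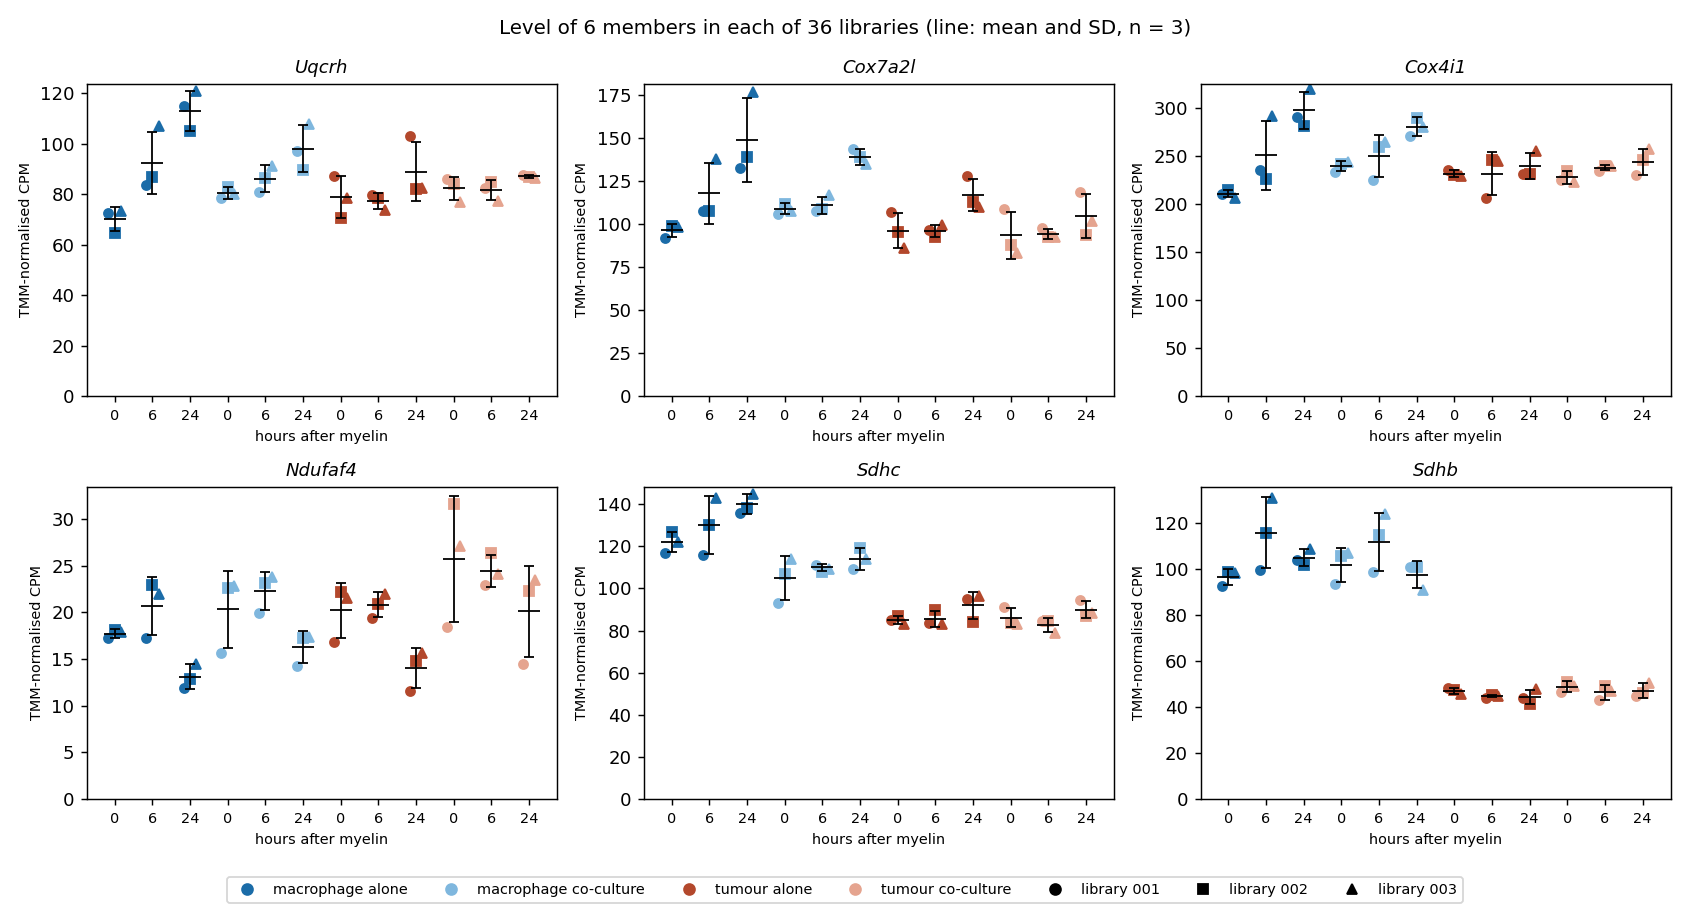
Levels of Uqcrh, Cox7a2l, Cox4i1, Ndufaf4, Sdhc and Sdhb in each of the 36 libraries, in TMM-normalised CPM from 0, by hours after myelin, with colour for cell type and culture. Each point is 1 library and the line with whiskers is the mean ± SD of 3; Uqcrh, Cox7a2l and Cox4i1 were higher at 24 h in lone macrophages, and Sdhc was lower in co-cultured than in lone macrophages at each time.

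At 24 h 3 members were lower in co-culture and none higher (28.0% of all genes were called). Beside Sdhc they were Ndufa7, an accessory subunit of complex I, and Uqcrh. Ndufa7 read 37.1, 34.1 and 30.8 CPM in co-culture and 38.4, 40.7 and 44.0 CPM in mono-culture, a log2 difference of -0.39 ± 0.11 (adjusted p = 0.0145, edgeR). Uqcrh read 97.1, 89.5 and 108 CPM against 115, 105 and 121 CPM, a difference of -0.33 ± 0.09 (adjusted p = 0.0157, edgeR), with its highest co-culture library above its lowest mono-culture library. At 24 h 65 members were below 0 and 18 above, with a median of -0.1, and 17 were lower and 0 higher at an unadjusted p under 0.05, while 39.6% of all genes passed. This balance depended on the scaling. In the shared scaling 49 members were above and 34 below 0 at 24 h, with a median of 0.02 beside 0.09 over all genes, and at 6 h the median was 0.05, against -0.07 in the fit on macrophages only. Sdhc was then the only member called lower at 24 h, Ndufab1 and Ndufv3, both of complex I, were called higher (26.3% of all genes were called), and Ndufa7 had -0.27 (adjusted p = 0.084) and Uqcrh -0.21 (adjusted p = 0.133, edgeR). At 0 h the median had been 0.07, with 66 members above 0. The 24 h count was 5 without the co-culture library 001, 7 without the mono-culture library 002 and 1 without the mono-culture library 003, and the 6 h count was 3 without the mono-culture library 002. At 0 h the block called 2 members, adding Cox8a at 0.23 (adjusted p = 0.0463), against 19.5% of all genes, and DESeq2 also called 2, against 15.5%.

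In tumour cells edgeR called no member in any comparison among the 6 tumour groups when all 18 libraries were used without a block. At 6 h no member passed at an unadjusted p under 0.05 in either culture (6.0% of all genes in mono-culture and 6.01% in co-culture), DESeq2 called 0, and 0.00735% of all genes were called in mono-culture and 0.0147% in co-culture. At 24 h in mono-culture 7 members were higher and 2 lower at an unadjusted p under 0.05 (27.0% of all genes), and DESeq2 called 2 (14.9% of all genes), while 10.5% of all genes were called. At 24 h in co-culture 7 were higher and 0 lower at an unadjusted p under 0.05 (14.3% of all genes), DESeq2 called 0, and 0.787% of all genes were called. In the test of the difference between the cultures in the 24 h change, no member passed in edgeR or DESeq2, with 1 member at an unadjusted p under 0.05 (3.65% of all genes) and 0.0% of genes called.

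The tumour libraries were taken as paired by number because their deviations correlated, which the labels do not state. With the number as a block 8 members were called at 24 h in mono-culture, 6 higher and 2 lower, against 27.9% of all genes. Ndufaf4 read 16.8, 22.2 and 21.5 CPM at 0 h and 11.6, 14.8 and 15.6 CPM at 24 h, a log2 change of -0.53 (adjusted p = 0.00564 with the block and 0.102 without, edgeR). The 24 h libraries were below all 0 h libraries, and within each number the 24 h library was the lower. Cox7a2l read 107, 95.8 and 86.2 CPM at 0 h and 128, 113 and 110 CPM at 24 h, a change of 0.28 ± 0.11 (adjusted p = 0.115 without the block and 0.0103 with it, edgeR), also without overlap. Ndufv3, a small subunit of the NADH-oxidising arm, had a change of 0.31 ± 0.11 (adjusted p = 0.0766, and 0.014 with the block), and Uqcrq, a small subunit of complex III, -0.29 ± 0.12 (adjusted p = 0.127, and 0.0438 with the block). Ndufaf3, another assembly factor, had a change of 0.50 ± 0.32 (adjusted p = 0.337, and 0.0329 with the block). Its 0 h libraries were uneven, at 8.75, 4.13 and 4.13 CPM. At 24 h in co-culture the block called 2 members, Ndufv3 and Ndufa13, both higher, against 9.28% of all genes. The macrophage list was higher at 24 h than at 0 h in mono-culture tumour libraries 002 and 003, as given above. Its part in the mono-culture changes was not tested.

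Tumour libraries 002 and 003 taken alone gave more calls. At 24 h 8 members were called in mono-culture (7 higher and 1 lower), against 35.9% of all genes, and 9 in co-culture (8 higher and 1 lower), against 22.6%. The member that was lower was Ndufaf4 in both, with log2 changes of -0.53 ± 0.11 in mono-culture and -0.36 ± 0.10 in co-culture (adjusted p = 0.000811 and 0.014, edgeR). Without the co-culture 0 h library 001 alone, 3 members were called at 24 h in co-culture. The share of all genes called in that fit is not given here. Between cultures no member was called in all libraries at 0 h, 6 h or 24 h, where 0.0%, 0.0% and 0.0809% of all genes were called. At an unadjusted p under 0.05 there were 5 higher and 3 lower members at 0 h, 5 and 0 at 6 h and 9 and 0 at 24 h, where 5.13%, 3.99% and 13.3% of all genes passed. DESeq2 called 0, 0 and 2 (Atp5a1 and Atp5b at 24 h, when it called 3.08% of all genes). In libraries 002 and 003 only, the counts were 6, 1 and 12, against 15.8%, 9.16% and 24.1% of all genes.

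In that 24 h comparison Ndufaf4 had the highest difference. It read 14.5, 22.3 and 23.5 CPM in co-culture and 11.6, 14.8 and 15.6 CPM in mono-culture, a log2 difference of 0.52 ± 0.20 (adjusted p = 0.264, edgeR). The co-culture library 001 lay among the mono-culture libraries, while the other pair stood above them. With the block Ndufaf4 was the only member called (adjusted p = 0.0292), against 6.12% of all genes. Tumour libraries 001 also held the least RNA of the macrophage list, 18.6 to 26.7 CPM against 251 to 1640 CPM in 002 and 003, in both cultures. The part of that RNA in these counts was not tested.

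Between the cell types in mono-culture at 0 h, 49 of 83 members differed (59.0% against 70.0% of all tested genes), 36 higher and 13 lower in macrophages. The differences were small for this contrast. Their median size was 0.27 (log2) against 0.87 over all genes, and 1 member reached 2-fold against 46.2% of all genes. That member was Sdhb, at chr4:140961203-140979193. It read 92.7, 99.0 and 98.4 CPM in macrophages and 48.4, 47.3 and 45.8 CPM in tumour cells, a 2.05-fold difference (log2 1.04 ± 0.09, adjusted p = 2.87e-11, edgeR). The groups were far apart.

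All 4 subunits of complex II were higher in macrophages: Sdhb, the anchors Sdhd by 0.59 ± 0.09 and Sdhc by 0.52 ± 0.08, and the flavoprotein Sdha by 0.23 ± 0.09 (adjusted p = 8.65e-07, 6.69e-07 and 0.0272, edgeR). Sdhd read 101, 107 and 107 CPM against 73.1, 71.2 and 65.3 CPM. The smallest of the 4, Sdha, read 236, 287 and 272 CPM against 229, 229 and 221 CPM, and its call was lost in 1 of 6 fits that left out 1 library. Elsewhere Cox6b1 of complex IV read 118, 131 and 122 CPM against 71.7, 78.8 and 81.8 CPM (log2 0.67 ± 0.10, adjusted p = 4.38e-07, edgeR). Uqcrc2, a core subunit of complex III, was higher by 0.58 ± 0.09 (adjusted p = 1.5e-06, edgeR). Ndufa6 of complex I was higher by 0.61 ± 0.18 and the assembly factor Ndufaf3 by 0.85 ± 0.24 (adjusted p = 0.00381 and 0.00258, edgeR), the latter with the uneven tumour libraries given above.

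Lower in macrophages were Ndufa7 and the assembly factor Ndufaf2, both at -0.53, Ndufb4 at -0.52, Atp5md at -0.43, Cox8a at -0.39 and Ndufv1 at -0.38. Ndufa7 read 35.6, 36.4 and 39.2 CPM in macrophages and 53.8, 52.6 and 54.2 CPM in tumour cells (adjusted p = 0.000125, edgeR), without overlap. Ndufaf2 read 7.36, 7.02 and 7.16 CPM against 12.0, 9.53 and 9.53 CPM, and 64.1% of its 50-base words occur in other genes. Atp5b was lower by 0.27 on the log2 scale in macrophages, a call lost in 3 of 6 fits that left out 1 library, while Atp5a1 at 0.07 and Cox4i1 at -0.14 were not called. Over all times and cultures, the 18 macrophage and 18 tumour libraries did not overlap for 12 members (14.5% against 41.4% of all tested genes). All 12 were higher in macrophages: Sdhb, Sdhd, Uqcrc2, Cox6b1, Cox7a2, Cox7c, Ndufa2, Ndufa3, Atp5c1, Atp5e, Atp5k and Atp5pb.

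**Figure D4:**
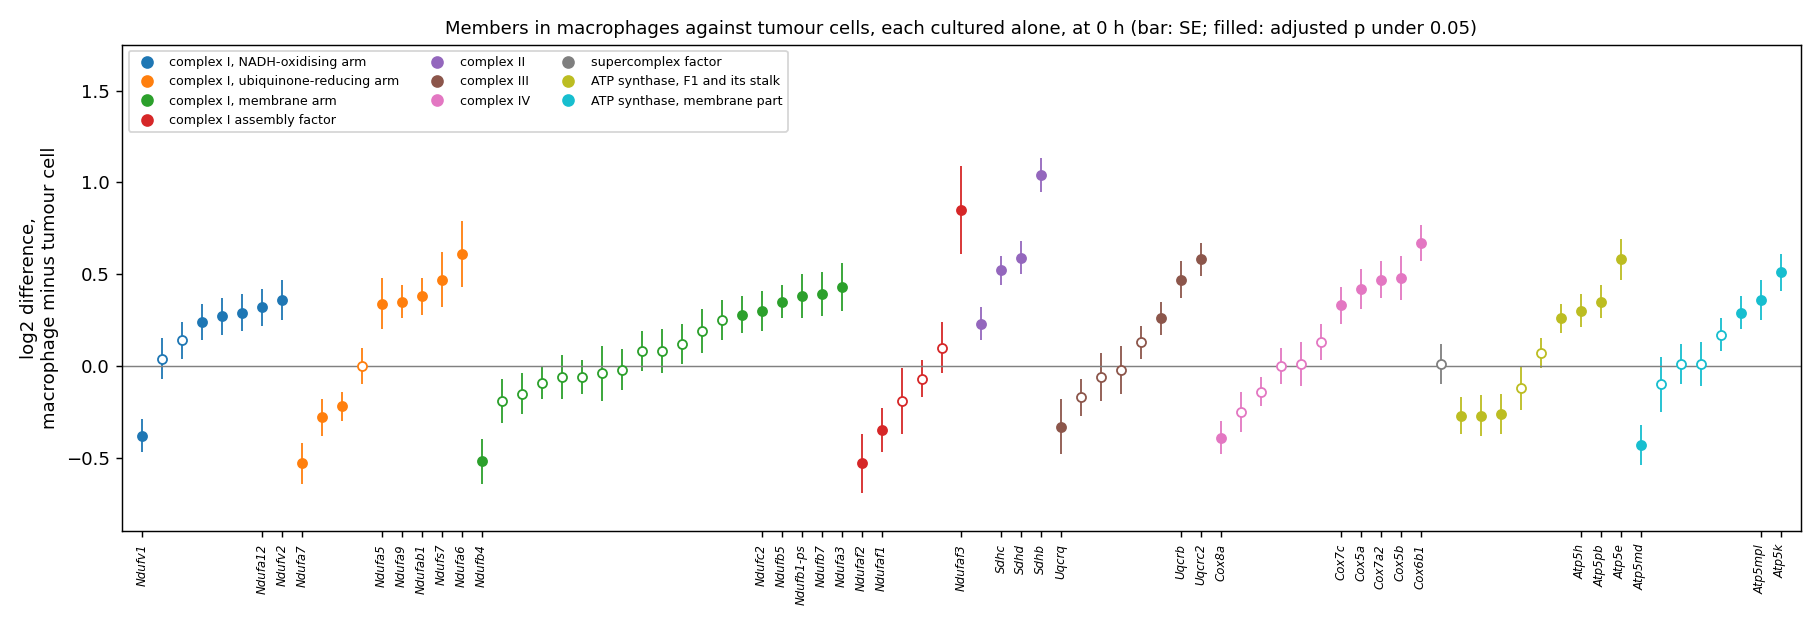
Log2 difference between macrophages and tumour cells in mono-culture at 0 h for each of the 83 members, coloured and ordered by role, with whiskers for the standard error. Filled points passed the test (edgeR, adjusted p under 0.05), and members with a difference of 0.3 or more in size are named; Sdhb is the highest at 1.04, and Ndufa7 and Ndufaf2 are the lowest at -0.53.

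The 24 h myelin change in mono-culture was larger in macrophages than in tumour cells for 3 members, tested as an interaction over all 36 libraries, and smaller for none (3.9% of all genes were called). Uqcrh differed by 0.52 ± 0.14 (log2, adjusted p = 0.0287, edgeR), its tumour change being 0.18 ± 0.09 with levels of 87.2, 70.7 and 78.5 CPM at 0 h and 103, 82.1 and 82.4 CPM at 24 h, which overlap. Cox4i1 differed by 0.45 ± 0.12 (adjusted p = 0.0316, edgeR), its tumour change being 0.05 ± 0.07 with 236, 230 and 229 CPM at 0 h and 232, 232 and 255 CPM at 24 h. Ndufb8 differed by 0.42 ± 0.12 (adjusted p = 0.0492, edgeR). In macrophages Ndufb8 read 37.7, 35.7 and 36.0 CPM at 0 h and 46.5, 43.2 and 43.1 CPM at 24 h, and in tumour cells 42.2, 36.5 and 35.3 CPM and 37.4, 31.2 and 34.8 CPM. Its exons overlap those of Gm20538 on the same strand. The tumour libraries compared here held 18.6, 251 and 330 CPM of the macrophage list at 0 h. At 24 h they held 19.1, 1290 and 1640 CPM, and the part of that RNA in these differences was not tested. Over the set 15 members were higher and 2 lower at an unadjusted p under 0.05 (16.8% of all genes), and DESeq2 called 2 (6.33% of all genes). The 3 calls were kept in 4, 2 and 1 of 12 fits that left out 1 library. No member was called without the macrophage 0 h library 002 or 003, the macrophage 24 h library 003, any tumour 0 h library other than 002, or the tumour 24 h library 002 or 003, and 1 was called without the macrophage 24 h library 001 or 002 or the tumour 0 h library 002.

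The 13 subunits encoded in mitochondrial DNA, which join the nuclear-encoded ones in complexes I, III, IV and ATP synthase, were present in the table, and 10 were tested. None was called in the 6 h or 24 h change of macrophages alone, with 0 at an unadjusted p under 0.05 and 0 in DESeq2. Between the cell types 4 of 10 were lower in macrophages at 0 h (70.0% of all genes differed), the opposite sign to complex II: mt-Nd6 by -1.10 ± 0.25, mt-Cytb by -0.85, mt-Nd1 by -0.75 and mt-Nd2 by -0.60 (log2), with a median of -0.38 over the 10. The 10 include some of the genes of low count that are named below, so that median is uncertain. mt-Nd1 read 959, 1280 and 1500 CPM in macrophages and 1910, 2100 and 2260 CPM in tumour cells. Of the 10, 1 was above 0 and none was called higher. By mean, mt-Co1 was the most abundant of these subunits. It read 3450, 4440 and 5170 CPM in macrophages and 2820, 4000 and 4160 CPM in tumour cells, with overlap, and shares 51.1% of its 50-base words with other genes. The counts of mt-Co2, mt-Co3, mt-Atp6, mt-Nd3 and mt-Nd4l were low, and nearly all of their 50-base words occur in other annotated transcripts, as in the plot of level against shared words. mt-Atp8 was also low but shares no word.

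Shared sequence also bears on the nuclear members. Of the 83, 31 had no 50-base exonic word in common with another annotated gene, 20 had over 10% of their words in common and 6 over 25%: Ndufaf2 (64.1%), Atp5o (41.6%), Atp5g2 (38.3%), Ndufb6 (31.6%), Ndufa13 (28.5%) and Uqcrb (25.5%). Exons of 31 members overlapped those of another gene, in 27 cases only on the opposite strand. Of the members described most fully, Sdhb and Ndufaf4 shared no word, Sdhc 0.092% and Uqcrh 3.04%. Reads of members with shared words could be split with their copies, so their values are less certain.

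**Figure D5:**
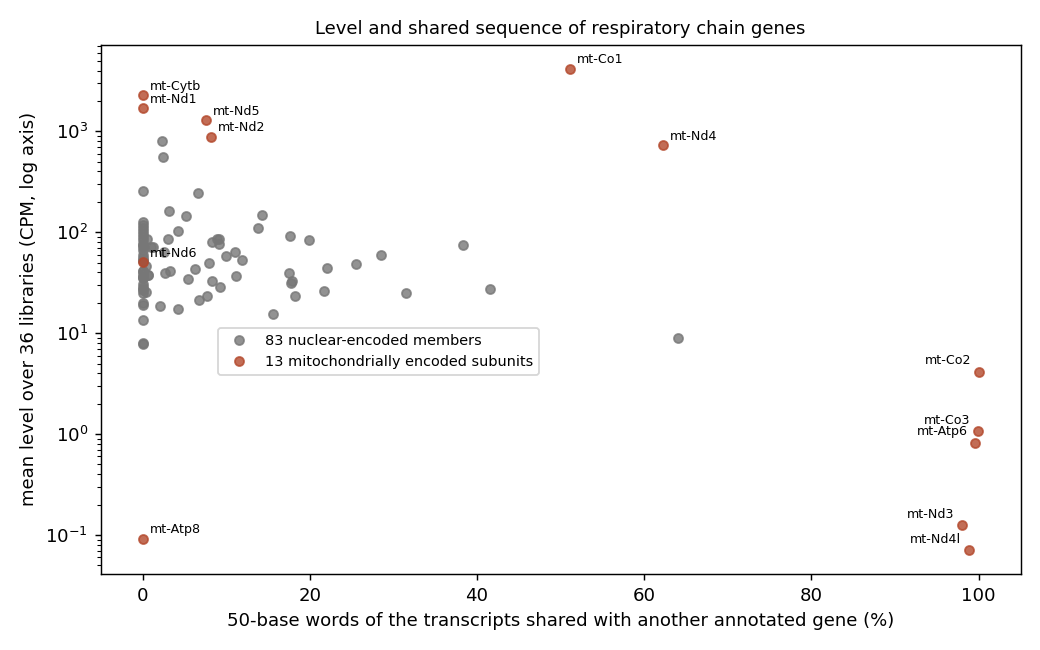
Mean level over 36 libraries (CPM, log axis) of each nuclear-encoded member (grey) and each mitochondrially encoded subunit (red, named), against the percentage of its 50-base words that occur in another annotated gene. Most members lie at the left edge, Ndufaf2 has the highest share among them (64.1%), and most mitochondrially encoded subunits at the right edge have low counts.

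Other mitochondrial genes were mixed at 24 h in lone macrophages, where 15.2% of all genes were called. Of 77 mitochondrial ribosomal proteins 3 rose and 2 fell, with a median log2 change of -0.02, and at 6 h none was called (17 at an unadjusted p under 0.05, 0 in DESeq2) while 65 of 77 were above 0. Of 48 assembly factors outside the set, 2 rose (Tmem126b and Higd2a, both 0.35) and 2 fell (Cox18, which inserts a complex IV subunit into the membrane, by -0.68, and the haem enzyme Cox10 by -0.34). Among 28 electron and inner-membrane carriers 2 rose and 5 fell. Etfdh, which passes electrons of fatty acid oxidation to ubiquinone, rose by 0.39 ± 0.07 (adjusted p = 0.00125, edgeR), and Pdss1, of ubiquinone synthesis, fell by 1.06 on the log2 scale. Of 21 genes of the tricarboxylic acid cycle and pyruvate use, 2 rose (Pcx by 0.71 and Mpc1, a pyruvate carrier, by 0.59) and 2 fell (Suclg2 by -0.68 and Cs, citrate synthase, by -0.32). Of 18 genes of mitophagy and quality control 3 rose, namely Pink1 by 1.03, Optn by 0.94 and Bnip3l by 0.60, which all serve mitophagy, and 3 fell, namely the chaperone Hspd1 by -0.46, the protease subunit Afg3l2 by -0.41 and the prohibitin Phb by -0.32. Of 21 regulators of mitochondrial biogenesis 1 rose (Sirt3 by 0.43) and 2 fell (Tfb1m by -0.56 and Pprc1 by -0.38). In the shared scaling fewer of these genes fell: 1 ribosomal protein, 1 assembly factor (Cox18), 2 carriers (Pdss1 and Slc25a13), 1 gene of the tricarboxylic acid cycle (Suclg2), 1 of quality control (Afg3l2) and 1 regulator (Pprc1). The 3 mitophagy genes, Etfdh, Pcx, Mpc1 and Sirt3 rose in it too.

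In co-cultured macrophages at 24 h the same mitophagy and quality control list held 6 genes of 18 that fell and none that rose, where 11.4% of all genes were called, among them Hspd1 by -0.48, Afg3l2 by -0.47 and Phb by -0.46. Atpif1, the inhibitor of ATP synthase, fell by -0.50 ± 0.09 (adjusted p = 0.00264, edgeR). Of the carriers 4 fell and none rose, including the uncoupling protein Ucp2 by -0.66 and the outer-membrane channel Vdac1 by -0.44. Pcx rose by 0.72. In the shared scaling 3 quality control genes fell (Oma1, Phb and Afg3l2) and 2 carriers (Ucp2 and Vdac1), Atpif1 fell and Pcx rose. The lists were written with earlier results of these data known, and no test compares them with other genes.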

How the data were processed

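The authors deposited 1 table of gene counts for 36 libraries, made from few nanograms of RNA by oligo-dT priming and template switching, per the labels' protocols. The build is mm10 per the submitters' processing notes, and the aligner, counting tool and use of strand are stated in none of the sources at hand. Such libraries count amplified polyadenylated transcripts, so low input adds spread. Members and gene lists were chosen with earlier results of these data known. Libraries were grouped by title. Counts were fitted with edgeR 4.0.16 (R 4.3.3, limma 3.58.1), TMM, filterByExpr and robust quasi-likelihood tests over all genes, with Benjamini-Hochberg adjustment. The 18 libraries of a cell type formed 1 fit, and all 36 formed the fit between cell types. In all, 18 comparisons were made. Standard errors follow from each change and its F statistic, as the size of the change over the root of F. The pipeline was tested on simulated data.

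Genes named are up to 5 called members per direction, a fixed set of subunits followed throughout, and up to 3 called genes of each other list; further members and genes were chosen after their values were seen. The number in the titles is not said to pair libraries. Same-number libraries were taken as paired where every correlation of their deviations exceeded 0.1. That held in the tumour comparisons (lowest 0.325), in the macrophage comparisons with 0 h (lowest 0.157) and between cultures at 0 h (0.288), but not between macrophage cultures at 6 h (-0.0197) and 24 h (0.0661) or between cell types (0.0578). Alternatives were TMM factors over all 36 libraries in the fits within a cell type (chosen after seeing the data), a fit without the low-count filter, one on only the groups compared, RLE size factors, DESeq2 1.42.0, libraries 002 and 003 only, the replicate block, other CPM minimums for membership and each library left out. Promoters came from RefSeq (GRCm38.p6) and exon words from GENCODE on the same build. With 3 libraries a group, small changes are below what the spread allows to be called. Results on 1 member are not reported here.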

Additional observations from a re-analysis of the deposited data

Results flagged for a closer look

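The 24 h myelin change in mono-culture differed between macrophages and tumour cells in the direct test of that difference (edgeR interaction contrast, adjusted p under 0.05) for 3 members: Uqcrh by 0.52, Cox4i1 by 0.45 and Ndufb8 by 0.42 on the log2 scale, each higher in macrophages. That is 3.61% of the set against 3.9% of all genes, so the share called was near the background. Cox4i1 and Ndufb8 were called in 2 and 1 of the 12 fits that left out 1 library, and Uqcrh in 4 of 12. The differences in those fits ran from 0.35 to 0.62 for Uqcrh, from 0.33 to 0.47 for Cox4i1 and from 0.27 to 0.46 for Ndufb8.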

How the results depend on the processing

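The set held 83 members, and 86 or 80 with a minimum mean of 1 or 10 CPM. Counts of members called that moved by over 1.5 times were as follows. In macrophages alone at 6 h (3 called) the count was 1 without the low-count filter, 9 in DESeq2, 10 with the replicate block, 6 in libraries 002 and 003 only and 0 in only the groups compared. At 24 h (14 called) it was 9 without the filter, 9 in libraries 002 and 003 only and 9 in only the groups compared. In co-culture at 24 h (3 called) it was 1 without the filter and 6 with the block. Between macrophage cultures it was 2 in DESeq2 and 2 with the block at 0 h (1 called), 2 with the block at 6 h (1 called) and 8 with the block at 24 h (3 called). At 6 h and 24 h the numbers were not taken to pair these libraries. In tumour cells, with 0 called throughout, it was 2 in DESeq2, 8 with the block and 8 in libraries 002 and 003 only at 24 h in mono-culture, and 2 with the block and 9 in libraries 002 and 003 only at 24 h in co-culture. Between tumour cultures libraries 002 and 003 only gave 6 at 0 h, 1 at 6 h and 12 at 24 h, where DESeq2 gave 2 and the block 1. For the difference between the cell types in the 24 h change (3 called) it was 0 without the filter, 6 with the block, 5 in libraries 002 and 003 only and 0 in only the groups compared. With TMM factors over all 36 libraries, an alternative chosen after seeing the data, the count was 0 in macrophages alone at 6 h and 0 between macrophage cultures at 6 h. The cause of these shifts was not tested. Where no share of all genes was given for an alternative fit, its count cannot be set against all genes.

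For fits with 1 library left out, here and above, no share of all genes called is given. The counts of members ranged from 0 to 6 and from 7 to 14 in macrophages alone at 6 h and 24 h. They ranged from 0 to 0 and from 0 to 2 in co-culture at 6 h and 24 h. Between macrophage cultures they ranged from 1 to 1 at 0 h, 1 to 3 at 6 h and 1 to 7 at 24 h. In tumour cells they were 0 throughout, except from 0 to 3 in co-culture at 24 h. Between cell types they ranged from 39 to 48 at 0 h (49 called), and from 0 to 2 for the difference in the 24 h change. Of the values of single members under the alternatives, 817 kept direction and side of the threshold, 125 lost the call, 41 gained it and 5 changed sign. The sign changes were Atp5b in macrophages alone at 24 h (from -0.15 to 0.0 with 1 library left out, the latter without the 0 h library 002) and Sdhb between macrophage cultures at 0 h (0.0 with RLE size factors, 0.0 in DESeq2, 0.01 in libraries 002 and 003 only and 0.08 with TMM factors over all 36 libraries), all within error of 0. RLE size factors changed no count of members called by over 1.5 times. Members at under 10 CPM, among them Ndufaf2, Ndufaf3 and Ndufaf5, rest on the fewest counts and are the least precise.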
